A study of Homo sapiens with 6 samples.

Results

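The cytosolic ribosomal protein genes are the protein-coding genes whose products build the small (40S, RPS symbols) and large (60S, RPL symbols) subunits of the cytoplasmic ribosome. They were chosen by symbol in GENCODE 44 on GRCh38 and found by Ensembl identifier in the count files, which gave 84 of the 60675 genes listed. Of these, 82 had counts and passed the filter on low counts, and 15261 genes in all were tested. The pattern takes in paralogs such as RPL22L1 and RPS27L and leaves out FAU and RPL36AL.

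The RNA came from MDA-MB-231, an established line of human triple-negative breast cancer with mesenchymal traits. Ribosomal RNA was depleted and paired ends were sequenced. The control group was 3 wells without added vitamin C, and the vitamin C group was 3 wells given 100 μM sodium ascorbate for 3 days with a daily change of medium. No source used here says that the wells of a group came from separate experiments, so p-values cover only well-to-well spread and that may be technical. Of 7 line markers, VIM was at 1276 ± 45.3 normalised counts per 1000000 reads (CPM; SD, n = 3) in control cells, CD44 at 962 ± 41.7 CPM, ESR1 at 0 in every library and PGR at 0 in 5 of 6 libraries, while ERBB2 was at 40.3 ± 1.35 CPM. The epithelial marker EPCAM was at 21.2, 21.6 and 23.2 CPM in control wells and rose to 34.9 ± 0.554 CPM after treatment (log2 fold change 0.66, edgeR adjusted p 0.00343). CDH1, also epithelial, was at 1.57 ± 0.925 and 3.89 ± 2.58 CPM and did not pass (edgeR adjusted p 0.113).

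Nearly all of these proteins are present in a single copy per ribosome, and cells make them in step with one another and with ribosomal RNA. Their mRNAs are short, abundant and long-lived. They usually begin with a 5′ terminal oligopyrimidine (TOP) tract, a C followed by further C and T bases, through which the mTOR pathway and LARP1 control their translation. Ribosomal protein genes have many processed pseudogenes, so short reads from them are often hard to place uniquely.

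The start sites show the shared feature of the family, which the choice of members did not use. RefSeq windows of 300 bases (250 before and 50 after the annotated start, GRCh38.p14) were available for 67 members. A C at the start followed by at least 4 C or T bases was found in 47 of the 67 (70.1%), against 4.98% of 27238 other genes. Where a gene had several windows, any one of them counted. The lines below give 15 bases before the start and 15 from it for members that fell (RPS3, RPS21, RPL10, RPS9, RPL35A), for members with higher mean levels after treatment (RPLP1, RPLP2, RPL39, RPS27), and for 1 member near no change (RPS4X). The unbroken run of C and T that holds the start is in capitals.
RPS3 (chr11:75399503-75399532, plus strand): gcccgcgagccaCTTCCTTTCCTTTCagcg
RPS21 (chr20:62387088-62387117, plus strand): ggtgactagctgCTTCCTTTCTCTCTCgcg
RPL10 (chrX:154398362-154398391, plus strand): caggcggaggagcgCCTCTTTCCCTTCggt
RPS9 (chr19:54200843-54200872, plus strand): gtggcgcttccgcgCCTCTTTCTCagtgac
RPL35A (chr3:197950175-197950204, plus strand): cggcggggcctcgTCCTTCTCTTaccgcca
RPLP1 (chr15:69452803-69452832, plus strand): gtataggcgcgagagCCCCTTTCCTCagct
RPLP2 (chr11:809952-809981, plus strand): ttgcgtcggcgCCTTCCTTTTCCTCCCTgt
RPL39 (chrX:119791616-119791645, minus strand): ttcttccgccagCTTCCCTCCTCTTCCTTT
RPS27 (chr1:153990747-153990776, plus strand): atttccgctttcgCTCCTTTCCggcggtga
RPS4X (chrX:72277234-72277263, minus strand): gcagtctccagccccaatttctacgcgcac

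Members that fell and members that were higher both carried the tract. The median log2 fold change (log2FC, treated against control) was -0.16 over the 47 tested members with it. It was -0.22 over the 19 tested members whose window lacked the tract. Of these groups 12 (25.5%) and 5 (26.3%) were called lower in edgeR, against 3.48% of all genes tested. RPS4X lacked the tract at its RefSeq start. The other 17 members had no window. The letters CCGGAAG, the core bound by ETS factors, stood on either strand of the window in 24 of 67 members (35.8%) and in 12.1% of other genes. AAGATGG, part of the YY1 site, stood in 9 members (13.4%) and in 7.10% of other genes. The 250 bases before the start are shown for RPS21, the member called lower whichever library was left out, and RPLP1, the member with the largest rise, with CCGGAAG in capitals.
RPS21 (chr20:62386853-62387102, plus strand): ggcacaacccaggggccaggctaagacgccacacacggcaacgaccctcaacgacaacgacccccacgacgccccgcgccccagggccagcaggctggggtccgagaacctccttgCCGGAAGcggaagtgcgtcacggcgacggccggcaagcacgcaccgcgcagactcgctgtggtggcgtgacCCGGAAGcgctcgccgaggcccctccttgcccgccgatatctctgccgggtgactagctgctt
RPLP1 (chr15:69452568-69452817, plus strand): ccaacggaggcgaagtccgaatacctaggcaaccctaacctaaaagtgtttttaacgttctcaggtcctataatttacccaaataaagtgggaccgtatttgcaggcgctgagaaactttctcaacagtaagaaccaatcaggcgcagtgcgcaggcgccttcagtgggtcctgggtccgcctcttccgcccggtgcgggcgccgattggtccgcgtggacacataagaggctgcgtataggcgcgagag
CCGGAAG occurred at 2 places in the RPS21 stretch and was not found in that of RPLP1, and AAGATGG was in neither.

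Ribosomal protein mRNAs were as a group slightly less abundant after vitamin C treatment. In bulk RNA, fewer expressing cells and less mRNA per cell cannot be told apart. Levels are relative to the other genes counted, so a fall of these mRNAs and a rise of others cannot be told apart either. Of the 82 tested, 25 were lower and 2 higher at an adjusted p under 0.05 in edgeR's quasi-likelihood test, and 55 did not pass. The share called lower was 30.5%, against 3.48% of all 15261 genes tested, and the share called higher was 2.44%, against 3.6% of all genes (7.08% in either direction). The median log2FC was -0.20, a level 0.872 times that of control, and 70 of 82 members lay below 0. Over all genes the median was 0.02 and 47.6% lay below 0. DESeq2 called 33 members lower, against 6.36% of the genes it gave an adjusted p, and 1 higher, against 4.35%. Both tools called 24 lower and 1 higher, against 3.36% and 2.98% of all genes.

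**Figure D1:**
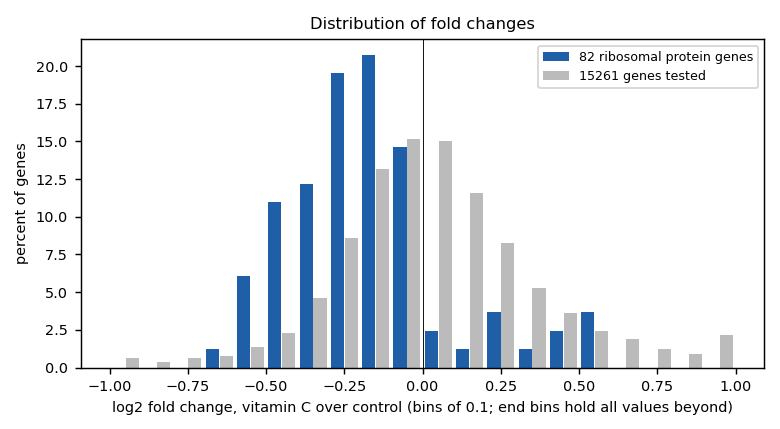
Percent of the 82 ribosomal protein genes (blue) and of all 15261 genes tested (grey) in bins of log2FC 0.1 wide. The ribosomal protein genes centre on -0.20, with 70 of 82 below 0, and all genes on 0.02.

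In 45 of the 82 members every vitamin C library lay below every control library (54.9%, against 16.6% of all genes tested), and in 3 every vitamin C library lay above (15.7% of all genes). The 45 include all 25 called lower. Ribosomal protein genes took 3.28%, 3.18% and 3.32% of the gene counts of the control libraries. In the treated libraries, again by replicate number, they took 2.96%, 3.04% and 2.95%. Thus the groups did not overlap, and the difference of the means was -0.27 percentage points.

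The shift had nearly the same size in each treated well. Relative to the mean log2 CPM of the controls, the median member stood at -0.20 in each of vitamin C 1, 2 and 3, and at 0.02, -0.05 and 0.02 in control 1, 2 and 3. Members below the control mean numbered 68, 64 and 71 in the vitamin C libraries. The same held within the subunits. For RPS genes the medians were -0.29, -0.31 and -0.26 in vitamin C 1, 2 and 3, and for RPL genes they were -0.15, -0.15 and -0.16.

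**Figure D2:**
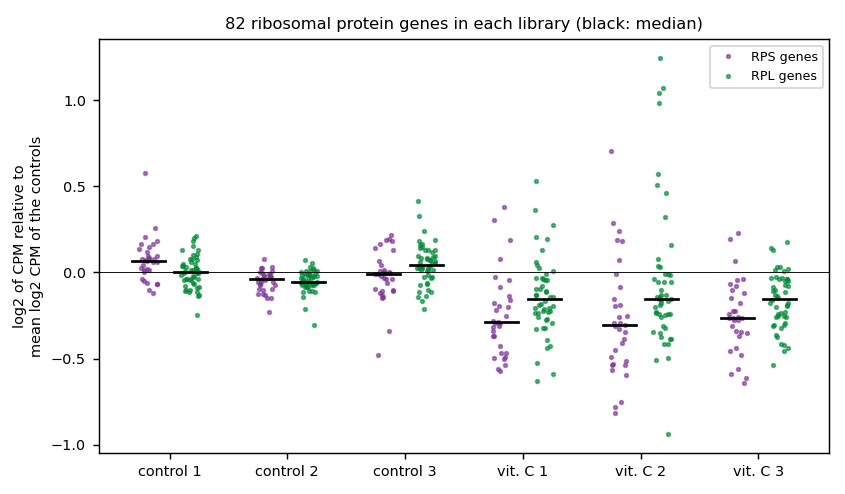
Each point is 1 of the 82 tested genes in 1 library, as log2 CPM minus the mean log2 CPM of the 3 controls. RPS genes are purple, RPL genes are green and black bars are medians. The medians lie between -0.31 and -0.15 in the vitamin C libraries, and vitamin C 2 holds the points farthest above 0.

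The libraries held 13434130 to 22373591 reads counted in genes, and the members took 397541 to 710387 of them. Unmapped read pairs made up 24.2% to 34.4% in control libraries and 24.7% to 49.5% in vitamin C libraries, highest in vitamin C 2. Mitochondrially encoded genes took 1.05% to 1.20% of gene counts in controls and 1.82%, 1.77% and 1.12% in vitamin C 1, 2 and 3. The part of these differences in the results was not tested. Vitamin C 2 was the highest of all 6 libraries for 14 members and the lowest for 25. Vitamin C 3, with 24.7% unmapped, was lowest for 27 members and highest for 0.

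The number of calls rested on single libraries more than the size of the shift did. When control 1 or control 2 was left out, 1 member was called lower, against 0.373% and 0.394% of all genes, and none was called higher, against 0.436% and 0.523% (2 to 3 members were higher at an unadjusted p under 0.05). Leaving out control 3 gave 17 lower and 1 higher (2.5% and 1.97% of all genes). Leaving out a treated well gave 7 lower for vitamin C 1 (1.0% of all genes), 11 for vitamin C 2 (1.47%) and 26 for vitamin C 3 (6.21%). Those fits called 0, 0 and 6 members higher, against 1.47%, 1.73% and 6.1% of all genes (6 and 3 at an unadjusted p under 0.05 for the first and the second). A replicate block gave 16 lower and 1 higher (2.21% and 2.58% of all genes), and upper-quartile factors gave 19 and 2 (2.47% and 4.5%). The split over all genes, 531 lower and 549 higher, was 377 and 687 with those factors. With 1 library left out the members' median log2FC was between -0.22 and -0.18, and with upper-quartile factors it was -0.16. At an unadjusted p under 0.05, 35 to 43 of 82 members were lower with any 1 library left out, against 9.01% to 14.8% of all genes.

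**Figure D3:**
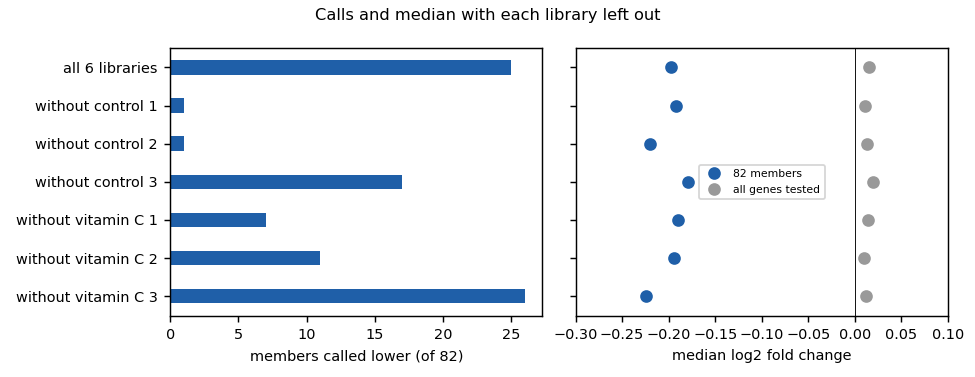
Left, number of the 82 ribosomal protein genes called lower (edgeR adjusted p under 0.05) with all 6 libraries and with each library left out. Right, the median log2FC of the 82 genes (blue) and of all genes tested (grey) in the same fits. The bars range from 1 to 26 while the blue points stay between -0.22 and -0.18.

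Among small subunit genes, 15 of 32 were lower (46.9%) and 1 was higher (3.1%), with a median log2FC of -0.31. Of large subunit genes 10 of 50 were lower (20.0%) and 1, RPLP1, was higher (2.0%), with a median of -0.15. Over all genes in this edgeR fit 3.48% were lower and 3.6% higher. This difference between the subunits was not tested. Correcting for the GC content and length of transcripts, an alternative added once the data had been seen, left 31 members lower and 0 higher in edgeR, against 5.02% and 3.0% of all genes (758 lower and 453 higher). Without it, 7 members were higher at an unadjusted p under 0.05 in edgeR and 1 was called by DESeq2.

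**Figure D4:**
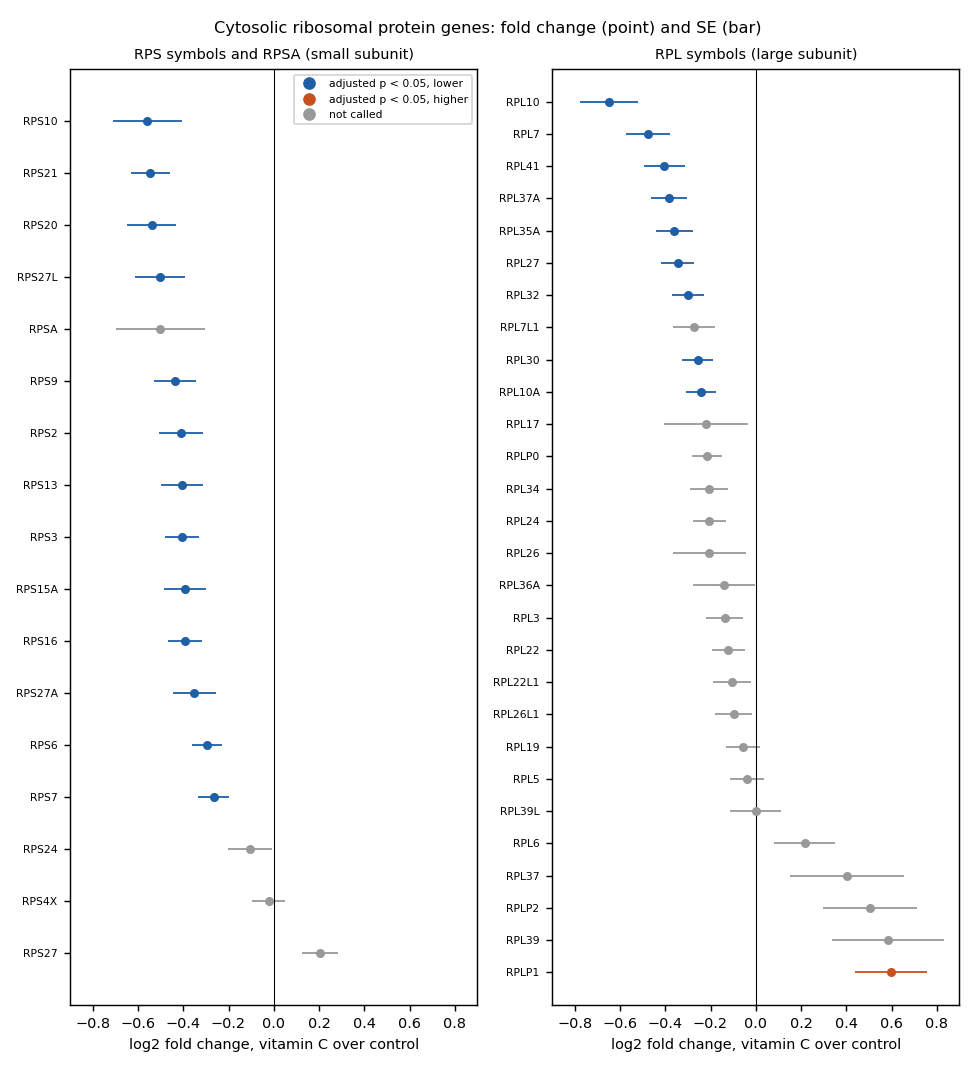
Log2FC of treated against control (points) and SE (bars) from edgeR, from 3 libraries per group, for the members named in the text: 17 small subunit genes, left, and 28 large subunit genes, right. Blue marks genes lower and orange genes higher at an adjusted p under 0.05. Blue points number 13 on the left and 9 on the right, and the orange point is RPLP1.

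RPS3, which lies at the mRNA entry channel of the small subunit and also acts in DNA repair, is on chromosome 11 (75399515 to 75422280). Its level was 414, 399.9 and 414 CPM in control 1, 2 and 3 and 317, 286 and 323 CPM in vitamin C 1, 2 and 3. Thus it went from 409 ± 8.02 to 309 ± 20.0 CPM (SD, n = 3 each) with no overlap (log2FC -0.41 with SE 0.07, adjusted p 0.0146). It did not pass without control 1 (adjusted p = 0.0579) or control 2 (0.0589).

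RPS21, a small protein of the 40S subunit on chromosome 20 (62387103 to 62388520), had the smallest adjusted p of the family. Control 1, 2 and 3 were at 269, 228 and 218 CPM, and vitamin C 1, 2 and 3 at 168, 164 and 158 CPM. The treated wells lay close together and well below the lowest control. The log2FC was -0.55 (SE 0.09, adjusted p = 0.00952), and RPS21 was the 1 member called lower in all 6 fits with a library left out, with adjusted p of 0.00715 to 0.0391. It was also the 1 member called lower at an adjusted p under 0.01.

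RPL10, which joins the 60S subunit late and makes it competent for translation, had the largest fall. Its levels were 121, 113 and 94.1 CPM in control wells and 70.4, 56.9 and 81.6 CPM in vitamin C wells, which did not overlap. The log2FC was -0.65 (SE 0.13, adjusted p = 0.0194). In GENCODE 44, 53.7% of the bases of its main transcript overlap exons on the other strand, of DNASE1L1 and 1 further gene. Whether counting used strand is not stated in the sources used here, and the part of this overlap in the result was not tested.

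Other small subunit genes fell by similar amounts. RPS16, whose tail reaches the decoding site, went from 222 ± 10.3 to 169 ± 10.9 CPM (SD, n = 3 each, log2FC -0.39 with SE 0.08, adjusted p 0.0189). RPS6, the substrate of the S6 kinases, went from 786 ± 14.8 to 641 ± 14.2 CPM (log2FC -0.29 with SE 0.07, adjusted p 0.0309). In both the treated wells lay below every control well. RPS20, RPS9, RPS2, RPS13, RPS15A and RPS7 also fell, with log2FCs of -0.54, -0.44, -0.41, -0.41, -0.39 and -0.27. RPS10 passed narrowly at 5.93 ± 0.610 against 4.02 ± 0.170 CPM (edgeR adjusted p = 0.0497) and did not pass in DESeq2 (0.0751). RPS27A, which is made as a fusion with ubiquitin, went from 540 ± 68.2 to 423 ± 30.2 CPM with an adjusted p of 0.0495.

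Large subunit genes that fell beside RPL10 included RPL7, RPL41, RPL37A, RPL35A, RPL27, RPL32, RPL30 and RPL10A. Of these RPL7 changed most, from 391 ± 51.5 to 281 ± 21.2 CPM (SD, n = 3 each, log2FC -0.48 with SE 0.10, adjusted p 0.0226). RPL35A, one of the genes mutated in Diamond-Blackfan anaemia, went from 315 ± 24.7 to 245 ± 16.4 CPM (log2FC -0.36 with SE 0.08, adjusted p 0.032). RPL10A had the smallest of the called changes. Its levels were 434, 428 and 420.0 CPM in control wells and 362, 362 and 358 CPM in vitamin C wells (log2FC -0.24 with SE 0.07, adjusted p 0.0487). The gap between groups was wider than the spread within either. RPL30 overlaps the annotated antisense gene RPL30-AS1 over 51.4% of its main transcript, so its counts carry the same limit as those of RPL10.

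RPLP1, RPLP2 and RPLP0 form the stalk of the large subunit, which recruits elongation factors. RPLP1, an acidic protein of the stalk on chromosome 15 (69452814 to 69456205), was at 291, 278 and 331 CPM in control wells and 432, 591 and 338 CPM in vitamin C wells. Vitamin C 3 lay just above the highest control and vitamin C 2 far above. The log2FC of 0.60 (SE 0.16) passed in edgeR (adjusted p = 0.0462) and not in DESeq2 (0.105), with the GC and length correction (edgeR 0.0503) or with a replicate block (edgeR 0.058), and it was 0.36 without vitamin C 2. RPLP1 did not pass without any 1 library other than vitamin C 3 (edgeR adjusted p of 0.0616 to 0.163).

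Its partner RPLP2 was at 432, 477 and 519 CPM in control wells and 546, 995 and 486 CPM in vitamin C wells. The groups overlapped, and the log2FC of 0.51 with an SE of 0.21 (edgeR adjusted p 0.145) was 0.11 without vitamin C 2. RPLP0, to which the RPLP1 and RPLP2 dimers bind, lay on the other side. It was at 980, 975 and 988 CPM in control wells and 815, 853 and 867 CPM in vitamin C wells, with no overlap, a log2FC of -0.22 (SE 0.07), an edgeR adjusted p of 0.0691 and a DESeq2 adjusted p of 0.0194.

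**Figure D5:**
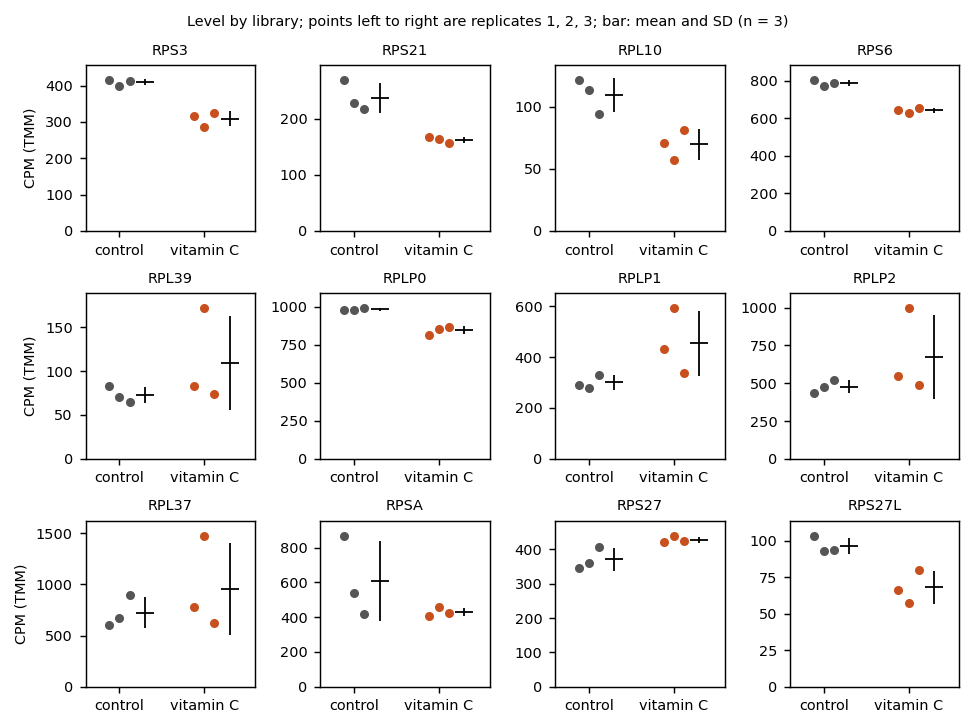
Normalised CPM of 12 ribosomal protein genes in the 3 control wells (grey) and the 3 vitamin C wells (orange), ordered by replicate number, with mean and SD (n = 3). RPS3, RPS21, RPL10, RPS6, RPLP0 and RPS27L lie lower in every vitamin C well than in any control, RPLP1 and RPS27 higher in every one, and RPLP2, RPL37 and RPL39 are highest in vitamin C 2.

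Some members owed their mean to 1 well. Vitamin C 2 exceeded the next vitamin C well 2.07 times for RPL39, 1.88 times for RPL37, 1.82 times for RPLP2 and 1.44 times for RPL6. RPL37 was at 603, 677 and 896 CPM in control wells and 784, 1471 and 622 CPM in vitamin C wells, and its log2FC of 0.40 became -0.05 without vitamin C 2. RPL39 had a log2FC of 0.58 with an SE of 0.25 (edgeR adjusted p 0.156), which was 0.10 without vitamin C 2. RPSA, a 40S protein also known as the laminin receptor, varied among the controls instead. It was at 865, 542 and 416 CPM in control 1, 2 and 3 and at 408, 456 and 423 CPM in vitamin C wells, and its log2FC of -0.50 (edgeR adjusted p = 0.128) was -0.16 without control 1.

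Levels between genes can be compared only per length, here CPM per kilobase of the main annotated transcript in control cells. The highest were RPS24 (1534 CPM per kilobase), RPL24 (1508), RPL19 (1471), RPL5 (1441) and RPL34 (1256), and none of these was called. RPL5, part of the 5S particle that can bind MDM2, was at 1439, 1475 and 1529 CPM in control wells and 1472, 1520 and 1333 CPM in vitamin C wells, so the groups overlapped (log2FC -0.04, SE 0.07). The lowest of the detected members were RPL17 (8.60 CPM per kilobase), RPS10 (10.1), RPS27L (15.8), RPL36A (16.9) and RPL39L (21.2). Exons of a read-through gene on the same strand cover 96.9% of the main transcript of RPL17, 84.0% of that of RPS10 and 43.8% of that of RPL36A. Same-strand exons of another gene also cover 65.3% of RPL26. A read over exons of more than 1 gene is counted for none, and the part of this overlap in the low counts was not tested. RPS27L has a main transcript annotated at 6110 bases, so its place in this order depends on that length.

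The paralogs did not follow their partners uniformly. RPS27L, a p53-responsive relative of RPS27, was at 103, 92.9 and 94.0 CPM in control wells and 66.6, 57.3 and 80.2 CPM in vitamin C wells. It fell by 0.50 on the log2 scale (SE 0.11, edgeR adjusted p = 0.0267). RPS27 itself was at 345, 361 and 408 CPM in control wells and 422, 438 and 424 CPM in vitamin C wells, above every control, with a log2FC of 0.20 (SE 0.08) that did not pass (edgeR adjusted p = 0.121). The difference between both changes was not tested. RPL7L1, at 674 ± 44.9 and 557 ± 66.2 CPM, had a log2FC of -0.27 that DESeq2 called (adjusted p = 0.0343) and edgeR did not (0.0882), while RPL7 fell by 0.48. The other pairs stayed within or near the spread of the wells. The log2FCs were -0.10 for RPL22L1 and -0.12 for RPL22, -0.10 for RPL26L1 and -0.20 for RPL26, and 0.00 for RPL39L. RPL3L, the form of striated muscle, and RPL10L, the form of the testis, had 0 counts in every library, while RPL3 had a log2FC of -0.14 that did not pass. A count of 0 allows up to 3 counts a library, or 0.134 to 0.223 CPM, for counting error only.

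Within the family the size of the change had little relation to the features examined. Over the 82 tested members, Spearman's rho with the log2FC was 0.09 for GC content, 0.01 for transcript length, 0.15 for control level and -0.02 for the number of pseudogenes named after the member. These are descriptions across genes that share the same 6 libraries. Of 41 members at or below the median control level 17 were lower (41.5%, median -0.22). Of the 41 above it 8 were lower (19.5%, median -0.16), and this difference was not tested. The same split gave 12 and 13 lower for GC content, 15 and 10 for transcript length and 13 and 12 for named pseudogenes. Of 28 members with a small nucleolar RNA gene inside them, 9 were lower and the median was -0.22, and of the 54 others 16 were lower and the median was -0.16. Pseudogene copies that passed the filter numbered 141, with a median of -0.15. Of these 9 were lower (6.38%, against 3.48% of all genes) and 3 higher (2.13%, against 3.6%). Below 0 lay 86 and above it 55. Of the 9 lower copies, RPL7P9 went from 16.3 ± 0.662 to 10.5 ± 1.00 CPM and RPL3P4 from 20.8 ± 2.57 to 12.6 ± 1.90 CPM. RPL7P1 and RPLP0P9, also of the 9, had log2FCs of -0.75 and -0.58. Such copies can exchange reads with their parent genes, so both are uncertain. Pairs with more than 1 alignment made up 10.3% to 15.2% of the read pairs, and are in no gene's count.

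Among other TOP mRNAs and ribosome biogenesis genes, those that passed in edgeR were all lower. Of 19 other mRNAs known for TOP tracts that could be tested, 4 were lower (21.1%, against 3.48% of all genes) and 15 did not pass. The median log2FC was -0.05, against 0.02 over all genes. None was higher in edgeR (3.6% of all genes) or in DESeq2 (4.35%), nor at an unadjusted p under 0.05 in edgeR (14.3%). In a list of 19 a count of 0 at such adjusted shares says little. HNRNPA1, a splicing factor, went from 882 ± 3.53 to 647 ± 64.4 CPM (SD, n = 3 each, log2FC -0.45, adjusted p 0.0153). The translation initiation subunits EIF3L and EIF3E had log2FCs of -0.45 and -0.40. FAU and RPL36AL, further ribosomal proteins outside the symbol rule, had log2FCs of 0.01 and -0.01 that did not pass. EEF1G was listed at 0 counts and was not tested.

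Of 40 ribosome biogenesis genes, 7 were lower (17.5%, against 3.48% of all genes) and 33 did not pass. The median log2FC was -0.20, and 36 lay below 0 (90.0%, against 47.6% of all genes). None was higher in edgeR (3.6% of all genes) or in DESeq2 (4.35%), nor at an unadjusted p under 0.05 in edgeR (14.3%). POLR1B, a subunit of the polymerase that makes ribosomal RNA, went from 110 ± 7.09 to 83.3 ± 3.37 CPM (log2FC -0.40, adjusted p 0.0172). TSR1 and PES1, which mature the small and large subunit, had log2FCs of -0.33 and -0.40, and FBL, the methyltransferase of ribosomal RNA, of -0.32. With upper-quartile factors 2 of the 40 were lower, against 2.47% of all genes. Without control 1 or control 2 none was, against 0.373% and 0.394% of all genes.

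Among 12 regulators of TOP mRNA translation none passed in edgeR, against 7.08% of all genes. None passed in DESeq2, against 6.36% lower and 4.35% higher. In a list of 12 a count of 0 at such shares says little. At an unadjusted p under 0.05 in edgeR 1 was lower and 2 were higher, where 13.1% and 14.3% of all genes were. LARP1, which binds the TOP tract, was at 409, 393 and 406 CPM in control wells and 407, 415 and 386 CPM in vitamin C wells, which overlapped. EIF4E, the cap-binding protein, and EIF4EBP2, which can hold it inactive, were the other abundant members of this list, and neither passed. Mitochondrial ribosomal protein genes, which build the separate ribosome of the mitochondrion, were lower in 3 of 78 (3.85%, against 3.48% of all genes). None was higher in edgeR or DESeq2, against 3.6% and 4.35% of the genes each tested. At an unadjusted p under 0.05 in edgeR 22 were lower, where 13.1% of all genes were, and 3 were higher, where 14.3% were. In 30 (38.5%) every vitamin C library lay below every control, against 16.6% of all genes. The 3 called lower in edgeR were MRPS18B, MRPL19 and MRPL39, with log2FC of -0.62, -0.35 and -0.30. In DESeq2 11 of the 78 were lower, against 6.36% of all genes. The median log2FC over all 78 in edgeR was -0.12. The difference between the cytosolic and the mitochondrial genes was not tested.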

How the data were processed

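RNA-seq libraries of 3 control and 3 vitamin C wells were analysed, grouped by the sample titles. The submitters' processing notes and the study's methods name CASAVA 1.4, Trim Galore for trimming and STAR for alignment to hg38 and counting. The values the authors deposited are raw counts per Ensembl gene, without normalization. The sources used here do not give the versions of STAR and of the annotation or the use of strand. The table that joins all samples was not used. The 4 summary lines per library were left out, so genes held 30.3% to 49.4% of read pairs.

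Identifiers were matched to GENCODE 44 (56558 of 60675). Tests used edgeR 4.0.16 in R 4.3.3 (TMM factors 0.972 to 1.02, filterByExpr with a minimum count of 10, glmQLFit and glmQLFTest, Benjamini-Hochberg adjustment over all 15261 genes), with DESeq2 1.42.0 and limma-voom (limma 3.58.1) as alternatives. CPM values use TMM library sizes. The edgeR and DESeq2 fits were tested on simulated data. With a biological coefficient of variation of 9.40%, small changes of well-counted genes can be missed. No replicates were duplicates (chi-square over its degrees of freedom, 5.03 to 24.1 per pair). The members and lists were chosen with earlier results of these data known. Genes named were RPS3, called members, the 5 highest and lowest levels per kilobase, the stalk, RPSA, RPS27A, the paralogs with their partners, the 3 largest rises and falls, and up to 4 called genes of each other list (the 3 most abundant where none was called). RPL37, RPL6, RPS4X and the genes outside the symbol rule were chosen after their values were seen. Some genes that this rule takes in are counted but not reported here by name.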

Additional observations from a re-analysis of the deposited data

How the results depend on the processing

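The direction of the family held in all 17 alternative fits, with medians of -0.22 to -0.16 on the log2 scale and 63 to 74 of 82 members below 0 (medians of all genes -0.02 to 0.05). The count called lower was 16 with a replicate block and 1 at an adjusted p under 0.01, and ranged from 1 to 26 with 1 library left out. With upper-quartile factors it was 19. The count called higher was 1 with DESeq2, limma-voom, a mean count of at least 100, the replicate block, thinning to the shallowest library (added after the data were seen) or both tools, 7 with any count accepted, 4 at an adjusted p under 0.10 and 0 at 0.01 or with the GC and length correction (also added later). It ranged from 0 to 6 with 1 library left out (0.436% to 6.1% of all genes). Of all genes 4.35% were higher with DESeq2, 2.98% with both tools, 2.58% with the replicate block and 3.0% with the GC and length correction. Over all genes edgeR called 1080, 2245 with any count accepted, 1982 by the likelihood ratio test, 83 at an adjusted p under 0.01 and 2466 at 0.10, and 128 to 1900 with 1 library left out. These totals join both directions. Where no share is given, counts called in 1 direction have no matching background. The replicate block gave 338 lower and 393 higher in all. Deviations of same-numbered wells showed no positive correlation (-0.02, -0.06 and -0.05), and those of differently numbered wells correlated at -0.05 to 0.11. These values cannot show whether the wells were handled in pairs. Of other TOP mRNA genes 0 were lower at an adjusted p under 0.01, and 0 to 5 with 1 library left out (0.373% to 6.21% of all genes). Of ribosome biogenesis genes 12 were lower by DESeq2 (6.36% of all genes), 2 with upper-quartile factors (2.47%) and 1 with the replicate block (2.21%). The count was 14 with any count accepted, 0 at an adjusted p under 0.01 and 11 at 0.10. It ranged from 0 to 7 with 1 library left out (0.373% to 6.21% of all genes). Of the biogenesis genes, 1 was higher with any count accepted, and 0 to 1 with 1 library left out. The cause of these shifts was not tested. Among the genes named, 11 changed sign on the log2 scale under an alternative, and none of them was called in the reported edgeR test. With 1 library left out RPL26 ranged from -0.35 to 0.026 (positive without control 3), RPL37 from -0.048 to 0.64 and RPL6 from -0.0044 to 0.33 (both negative without vitamin C 2), RPS24 from -0.18 to 0.0080 (positive without control 3) and RPL5 from -0.080 to 0.013 (positive without vitamin C 3). Values near 0 also crossed it for RPS4X (range -0.075 to 0.013), RPL39L (-0.082 to 0.056), FAU (-0.025 to 0.034), RPL36AL (-0.072 to 0.019), LARP1 (-0.025 to 0.027) and EIF4EBP2 (-0.088 to 0.070). With upper-quartile factors RPS4X was 0.015, RPL39L 0.035, RPL36AL 0.023, LARP1 0.037 and EIF4EBP2 0.029, and with the mean count filter RPL39L was 0.019, RPL36AL 0.0062, LARP1 0.019 and EIF4EBP2 0.011. FAU was -0.0078 with DESeq2, -0.014 with any count accepted and -0.062 with the GC and length correction. The share of gene counts differed by -0.24 percentage points with structural and mitochondrial RNAs left out, against -0.27. Depth limits RPS10, RPL17 and RPL36A most, at under 300 counts a library.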
